A study of Mus musculus with 25 samples.

Results

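The genes described are 10 markers of macrophages and other leukocytes, Tyrobp, Fcer1g, Laptm5, Ptprc, Csf1r, C1qa, C1qb, C1qc, Cd68 and Lyz2, in RNA purified as podocyte RNA. They are the probe sets whose only gene symbol in the platform annotation is one of these names, with the brightest probe set kept for Laptm5, the member that has 2. All 10 were found among 17097 named genes, and 9 were among the 11968 genes tested. Cd68 averaged 4.598 on the log2 scale over the 25 arrays, just under the limit of 4.603 below which the dimmest 30% of genes were left out, so its values below come from the fit without that limit. C1qb was the dimmest member above the limit, at 4.72.

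The mice carried a transgene, Col1a1-eGFPL10a, in which a collagen1α1 promoter/enhancer drives green fluorescent protein fused to ribosomal protein L10a, so that ribosomes can be pulled out of the cells that use the promoter and the RNA on them measured. Knock-in (KI) mice carried the transgene and the Actn4tm1.1Plk allele, a point mutation in the actin crosslinker alpha-actinin-4. Control (WT) mice carried the transgene alone. Arrays were hybridized from 4 KI and 4 WT samples at 2 weeks, 4 KI and 5 WT at 5 weeks, and 4 KI and 4 WT at 44 weeks, all of mixed C57/129sv background with sex labelled unknown. The labels give neither the number of mutant alleles in a KI mouse nor whether each array came from its own animal, and a p-value here therefore reflects only how far these samples spread, which may be technical.

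Macrophages are resident phagocytes of the kidney interstitium, with few in the healthy glomerulus. They take up debris and immune complexes, and they make the C1q chains that start the classical complement pathway. Tyrobp and Fcer1g are small adaptor chains that carry the signal of receptors which lack a signalling tail of their own, such as Trem2 and the activating Fc receptors. Ptprc is CD45, the phosphatase on the surface of all nucleated blood cells, and Csf1r is the receptor through which CSF1 and IL34 keep macrophages alive.

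On these arrays the markers were low. Their means over the arrays exceeded those of 29.9% (Cd68) to 49.7% (Fcer1g) of the named genes. All 250 values, 10 genes on 25 arrays, lay above the highest of 23 nonspecific control probe sets on the same array, and they ran from 3.67 to 7.83. Lying above these controls does not by itself show that a gene was expressed. Several other genes by which macrophages are commonly known were dimmer, and others were not. Of 26 other mononuclear phagocyte genes on the array, 13 lay under the limit, among them Adgre1, a standard macrophage surface antigen (mean 3.61), Itgam, the CD11b integrin chain (3.51), Aif1 (3.99), Cd163 (3.57) and Spi1, which encodes the transcription factor PU.1 (4.41). The other 13 lay above it, from Mpeg1 (4.64) to Mertk (11.04), with Cd14 at 5.62, Ctss at 6.30, Fcgr2b at 6.76 and Lgals3 at 8.09. Whether the signal of Mertk and the other brighter genes came from macrophages was not tested. The 13 podocyte markers averaged 10.79 to 11.56 per array. In RNA pulled down in this way, fewer cells of a type, less RNA per cell and less carry-over from other cells cannot be told apart.

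Array 1 of the WT group at 2 weeks was the only array of 25 whose closest array, by correlation over the tested genes, was of another age. It had 860 genes more than 2-fold from the rest of its group, where WT array 10 of 5 weeks had 892 and WT array 15 of 44 weeks 851. Arrays 7, 8 and 9 of WT at 5 weeks were the lowest of their 5 in tubule and endothelial markers. Calls that rest on array 1, or on arrays 7, 8 and 9 together, are given with and without them.

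The promoter windows of 4 members are shown because C1qb, Laptm5 and Fcer1g were among the members called at 5 weeks and C1qc is the neighbour of C1qb in the C1q gene cluster. PU.1 is the factor best known for switching on genes of macrophages, and its core site, the PU box, reads GAGGAA; a longer site of the same ETS family reads AGGAAGT. Each line runs 5′ to 3′ along the gene's own strand, from 250 bases before a start annotated for the gene to 50 after it. Coordinates are of GRCm38.p6, and capitals mark matches to either motif on either strand.
Laptm5: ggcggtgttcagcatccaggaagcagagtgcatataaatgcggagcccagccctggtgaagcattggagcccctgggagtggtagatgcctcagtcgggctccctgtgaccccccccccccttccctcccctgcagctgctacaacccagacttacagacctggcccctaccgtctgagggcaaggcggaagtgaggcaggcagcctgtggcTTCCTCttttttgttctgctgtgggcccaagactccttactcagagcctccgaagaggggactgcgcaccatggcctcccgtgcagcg
C1qb: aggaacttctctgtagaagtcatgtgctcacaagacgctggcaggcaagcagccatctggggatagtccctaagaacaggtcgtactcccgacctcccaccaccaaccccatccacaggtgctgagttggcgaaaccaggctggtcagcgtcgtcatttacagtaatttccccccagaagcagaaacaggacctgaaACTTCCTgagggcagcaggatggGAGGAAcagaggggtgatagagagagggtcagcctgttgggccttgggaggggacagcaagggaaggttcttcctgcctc
C1qc: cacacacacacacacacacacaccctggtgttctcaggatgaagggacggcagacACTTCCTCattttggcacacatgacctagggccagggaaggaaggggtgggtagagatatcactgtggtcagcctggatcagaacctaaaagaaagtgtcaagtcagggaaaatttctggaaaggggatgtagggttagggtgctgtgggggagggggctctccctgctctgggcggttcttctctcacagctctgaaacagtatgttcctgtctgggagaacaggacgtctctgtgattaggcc
Fcer1g: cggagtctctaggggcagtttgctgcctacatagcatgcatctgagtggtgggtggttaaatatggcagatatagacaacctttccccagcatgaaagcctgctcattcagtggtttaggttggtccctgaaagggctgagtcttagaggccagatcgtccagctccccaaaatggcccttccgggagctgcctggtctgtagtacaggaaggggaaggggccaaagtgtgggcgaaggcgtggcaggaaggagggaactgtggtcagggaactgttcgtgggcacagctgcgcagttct
These windows are chr4:130913066-130913365 on the plus strand for Laptm5, chr4:136886151-136886450 on the minus strand for C1qb, chr4:136892865-136893164 on the minus strand for C1qc and chr1:171234300-171234599 on the minus strand for Fcer1g. The start used is not always the outer end of the gene. For Laptm5 the whole window lies inside the gene's span, chr4:130912890-130936148. The start used for C1qc also differs from the outer end of its span, at 136892936. In the C1qc window the 2 motifs overlap within a run of capitals, and the Fcer1g window holds neither. Windows were available for 7 of the 10 members, 8 windows in all, with 2 overlapping ones for Ptprc. Tyrobp, Csf1r and C1qa are named only. GAGGAA occurred in 5 of the 8 windows and in 28.3% of all 32851 windows, and AGGAAGT in 5 of the 8 and in 9.4% of all windows. The Ptprc windows share 1 AGGAAGT match, so that by member GAGGAA occurred in 5 of 7 and AGGAAGT in 4 of 7. A match describes the letters and is not evidence that a factor binds there.

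At 5 weeks 5 of the 9 tested members were called higher in KI than in WT podocyte preparations. They were Tyrobp, Fcer1g, Laptm5, C1qa and C1qb, with differences of 0.44 to 1.09 on the log2 scale, and no member was called lower. At this age 22% of all tested genes were called, 14.3% higher and 7.75% lower (limma over 6 group means, Benjamini-Hochberg adjusted p under 0.05 over all tested genes). The median difference of the 9 members was 0.56, and that of all tested genes 0.06. The plot of values by array shows each member in each group.

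**Figure D1:**
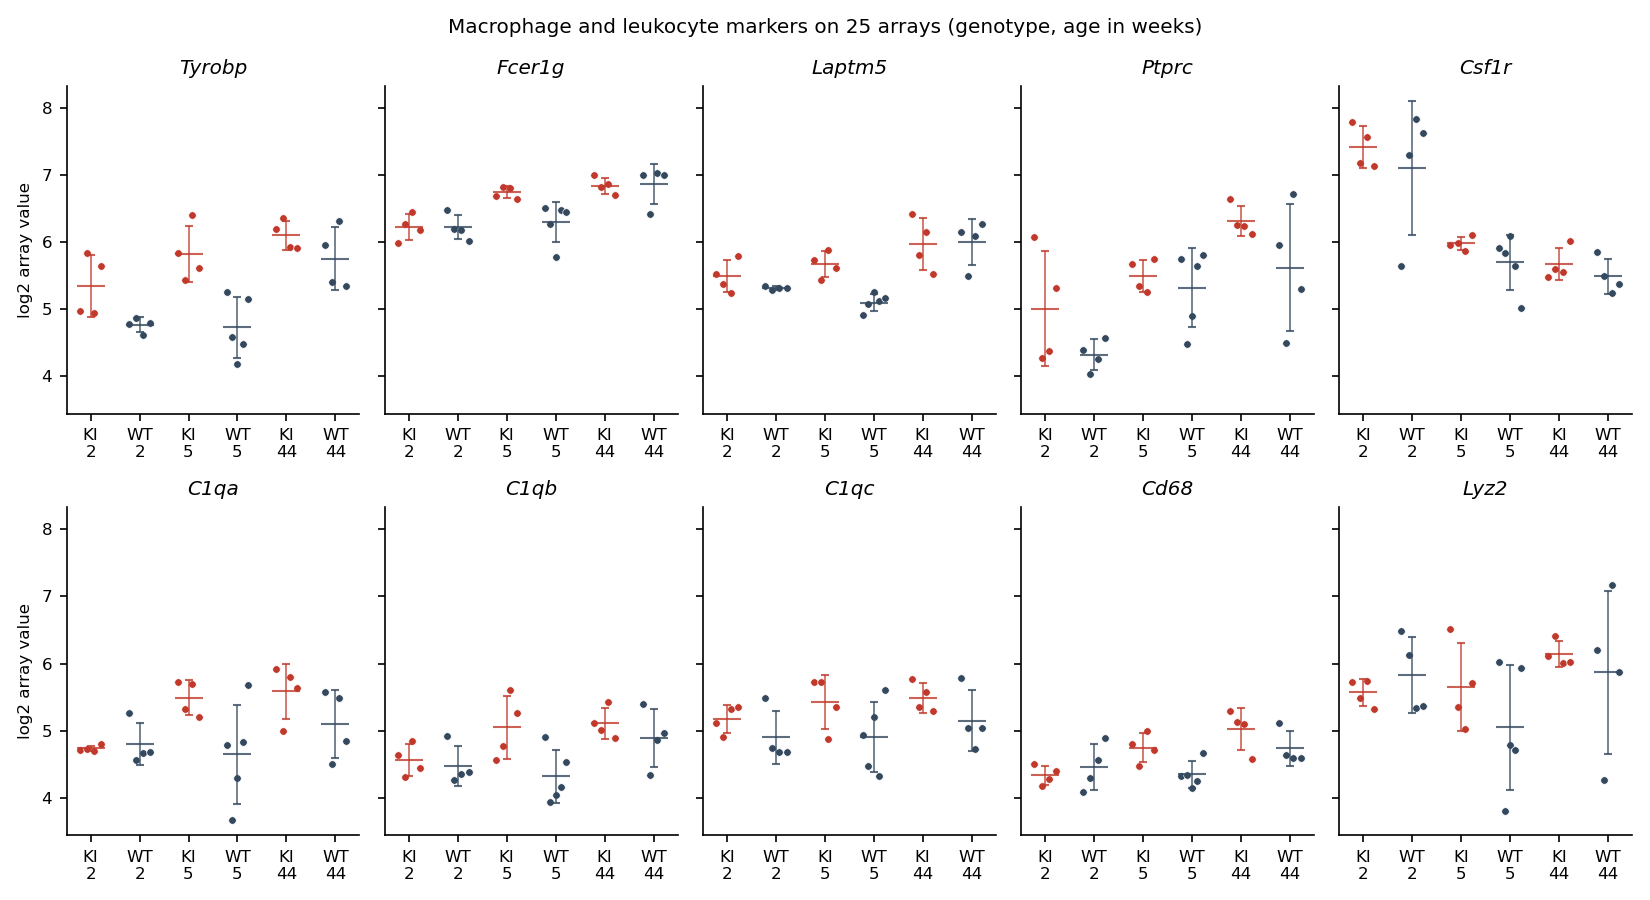
Log2 array values (y axis) of the 10 markers in KI (red) and WT (dark) samples at 2, 5 and 44 weeks; points are arrays, and bars the mean ± SD. At 5 weeks all 4 KI arrays lie above all 5 WT arrays for Tyrobp, Fcer1g and Laptm5, and Csf1r is high at 2 weeks except on 1 WT array at 5.64.

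The adaptor Tyrobp showed the widest of these differences. Its log2 values were 5.84, 5.43, 6.40 and 5.61 on the KI arrays at 5 weeks, against 5.25, 4.59, 4.18, 4.49 and 5.15 on the WT arrays. Every KI array lay above every WT array, the nearest being 5.43 and 5.25. The difference was 1.09 ± 0.25 (SE), or 2.13-fold, with an adjusted p of 0.0059 in limma. Tyrobp lies at chr7:30413782-30417582 (GRCm38.p6), 1.45 Mb from the end of Actn4 on the same chromosome, so that a linked difference between strains cannot be told apart from the knock-in. Hcst, the neighbouring gene that encodes the adaptor DAP10, lies 1.46 Mb away, and averaged 4.95 ± 0.02 in KI (SD, n = 4) and 4.85 ± 0.24 in WT (n = 5) at 5 weeks, a difference of 0.10 ± 0.14 (limma adjusted p = 0.62).

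Fcer1g, the gamma chain shared by Fc receptors, was narrow in KI. Its log2 values were 6.69, 6.82, 6.81 and 6.64 on the KI arrays at 5 weeks, against 6.51, 6.27, 5.78, 6.47 and 6.45 on the WT arrays. The groups did not overlap, although array 8 of WT was well below the rest. The difference was 0.44 ± 0.15, 1.36-fold (limma adjusted p = 0.036).

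Laptm5, a lysosomal membrane protein of blood cells that lowers receptor levels, also separated the groups. It had 5.74, 5.44, 5.88 and 5.62 on the KI arrays at 5 weeks, against 4.91, 5.08, 5.25, 5.12 and 5.17 on the WT arrays. All KI arrays were higher, and the difference was 0.56 ± 0.16, 1.48-fold (limma adjusted p = 0.019). The gene's other, dimmer probe set averaged 5.21 ± 0.21 in KI (SD, n = 4) and 4.44 ± 0.25 in WT (n = 5), with the lowest KI array at 4.99 and the highest WT array at 4.87. Tyrobp, Fcer1g and Laptm5 are thus 3 of 10 members with every KI array above every WT array, where 7.09% of tested genes were so placed.

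The 3 chains of C1q come from neighbouring genes within 18.7 kb on chromosome 4 (chr4:136880126-136898844). C1qa had 5.72, 5.32, 5.70 and 5.21 on the KI arrays at 5 weeks, against 4.79, 3.67, 4.30, 4.83 and 5.68 on the WT arrays. C1qb had 4.56, 4.78, 5.61 and 5.26 on the KI arrays, against 4.90, 3.94, 4.04, 4.16 and 4.54 on the WT arrays. Each overlapped between groups through 1 WT array, array 10 for C1qa and array 6 for C1qb. C1qa was 0.83 ± 0.29 higher in KI (limma adjusted p = 0.044) and C1qb 0.73 ± 0.23 higher (adjusted p = 0.029). The call of C1qa held in 15 of 37 alternative fits, and was lost after quantile normalization (limma adjusted p = 0.064) and in the fit of only the arrays compared (adjusted p = 0.13). The call of C1qb was lost in 10 of the 37, that of Fcer1g in 13 and that of Laptm5 in 6. C1qc averaged 5.43 ± 0.40 in KI (SD, n = 4) and 4.91 ± 0.52 in WT (n = 5), and its difference of 0.52 ± 0.25 was not called (adjusted p = 0.14).

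The other members were not called at 5 weeks. Ptprc had 5.67, 5.35, 5.25 and 5.75 on the KI arrays, against 5.75, 4.49, 4.90, 5.64 and 5.81 on the WT arrays, so that 3 WT arrays lay within or above the KI range (difference 0.19 ± 0.37, limma adjusted p = 0.74). Csf1r differed by 0.28 ± 0.30 (adjusted p = 0.52). Lyz2, the macrophage and neutrophil lysozyme, ran from 5.02 to 6.52 in KI and from 3.80 to 6.02 in WT (difference 0.60 ± 0.46, adjusted p = 0.35), and its probe set is of a type that can also bind related transcripts. Cd68, a lysosomal glycoprotein of macrophages, ran from 4.48 to 4.99 in KI and from 4.15 to 4.67 in WT, and differed by 0.40 ± 0.16 (limma without the limit on dim genes, adjusted p = 0.10).

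**Figure D2:**
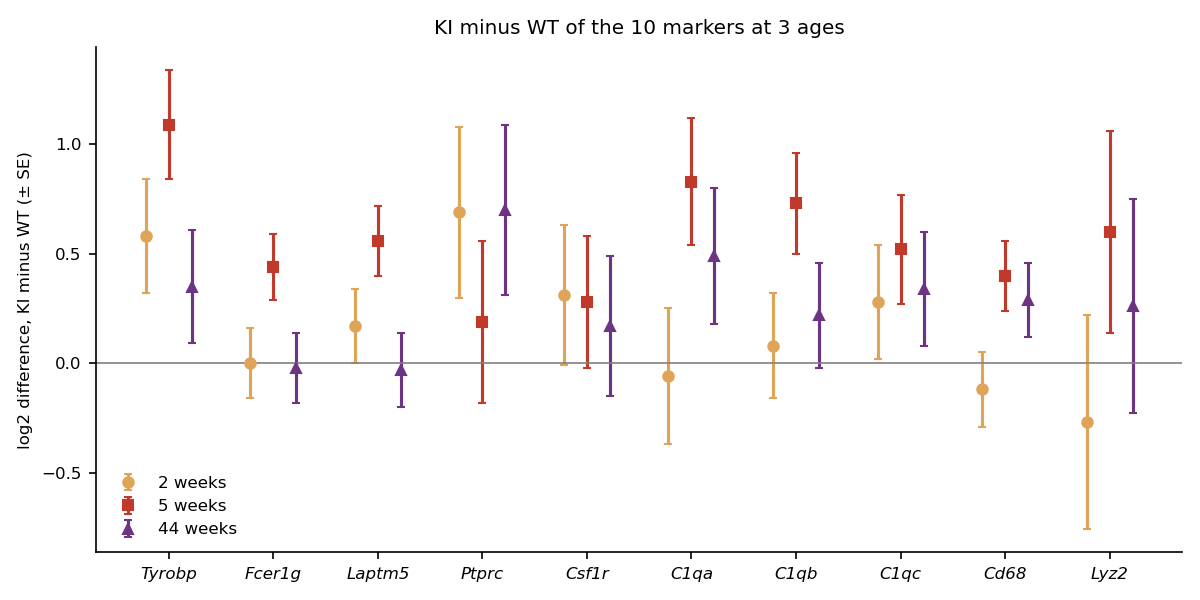
Log2 difference, KI minus WT, of the 10 markers (x axis) at 2, 5 and 44 weeks; points are limma estimates and bars ± 1 SE, with Cd68 from the fit without the limit on dim genes. Tyrobp, Fcer1g, Laptm5, C1qa and C1qb are called at 5 weeks, at 0.44 to 1.09, and no marker is called at 2 or 44 weeks.

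At 2 weeks 0 of the 9 tested members were called, and 0% of all genes, although 613 genes had an unadjusted p under 0.05 (limma). Tyrobp already had every KI array above every WT array, where 1.16% of genes were higher without overlap. Its values were 4.97, 5.83, 4.94 and 5.65 in KI and 4.78, 4.87, 4.61 and 4.80 in WT, and the difference was 0.58 ± 0.26 (limma adjusted p = 0.89, unadjusted p = 0.036). Ptprc spread widely in KI, with 6.07, 4.27, 4.38 and 5.32, against 4.40, 4.03, 4.26 and 4.57 in WT. For the 9 tested members the median difference was 0.17, and for all genes -0.02. The tubule marker mean ran from 8.29 to 9.20 on the KI arrays and from 7.89 to 8.40 on the WT arrays at this age, and Y-linked genes were high on 1 of 4 KI and 4 of 4 WT arrays.

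At 44 weeks 0 of 9 tested members were called, where 0.0251% of genes were (3 genes, and 762 at an unadjusted p under 0.05 in limma). Y-linked genes were high on 3 of 4 KI and 1 of 4 WT arrays. The arrays of both groups overlapped for all 10 members, where 2.74% of genes did not overlap. Laptm5 had 6.41, 5.81, 6.15 and 5.52 on the KI arrays, against 6.15, 5.50, 6.09 and 6.27 on the WT arrays. Its difference of -0.03 ± 0.17 on the kept probe set and that of Fcer1g, -0.02 ± 0.16, stood near 0. The differences of Tyrobp (0.35 ± 0.26), Ptprc (0.70 ± 0.39) and C1qa (0.49 ± 0.31) were positive without being called. On the dimmer probe set of Laptm5 the KI arrays averaged 5.61 ± 0.39 and the WT arrays 5.13 ± 0.46 (SD, n = 4 each), with overlap. The median was 0.26 for the 9 tested members and 0.01 for all genes. WT array 16 was low for several members: it had 4.50 for Ptprc, where the other WT arrays had 5.30 to 6.71, and 4.26 for Lyz2, where they had 5.87 to 7.17.

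Whether the KI effect changed between ages was tested directly. No member was called for the change from 2 to 5 weeks, where 0.0251% of genes were, or for the change from 5 to 44 weeks, where 0% were; in limma 2242 and 2335 genes had an unadjusted p under 0.05. The largest member values were 0.89 ± 0.42 for C1qa from 2 to 5 weeks (limma adjusted p = 0.26), and -0.75 ± 0.36 for Tyrobp (adjusted p = 0.26) and -0.60 ± 0.24 for Laptm5 (adjusted p = 0.18) from 5 to 44 weeks. The difference between ages is therefore not shown for any member. Averaged over the 3 ages, Tyrobp alone of the members was called, 0.67 ± 0.15 higher in KI (limma adjusted p = 0.022), where 5.32% of genes were called and 3.99% were higher. It was not called with the tubule marker mean as a covariate (0.51 ± 0.20, limma adjusted p = 0.88), with the endothelial marker mean (0.48 ± 0.18, adjusted p = 0.43) or without WT arrays 7, 8 and 9 of 5 weeks (0.52 ± 0.15, adjusted p = 0.18). The other 8 ranged from 0.14 ± 0.09 for Fcer1g to 0.53 ± 0.22 for Ptprc.

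The KI and WT arrays at 5 weeks also differed in markers of other cells. Of the tested markers, 4 of 16 of the proximal tubule, 6 of 19 of the loop of Henle, distal tubule and collecting duct, 6 of 16 of endothelium, 4 of 9 of mesangium and smooth muscle and 2 of 3 of red cells were higher in KI, and none of them lower. Podocyte markers were 1 higher and 3 lower of 13. Among all tested genes 14.3% were higher and 7.75% lower in KI at this age. The mean of the tubule markers ran from 8.75 to 9.09 on the KI arrays and from 7.67 to 8.68 on the WT arrays, without overlap, and that of the endothelial markers from 7.20 to 7.56 on the KI arrays and from 5.97 to 6.97 on the WT arrays. Y-linked genes were high on 3 of 4 KI and 2 of 5 WT arrays, and the 18S RNA control signal averaged 10.29 ± 0.44 in KI (SD, n = 4) and 8.74 ± 0.73 in WT (n = 5). The signal of the actin control at its 3′ end minus that at its 5′ end, a measure of RNA quality and amplification, ran from 0.99 to 1.33 on the KI arrays and from 1.47 to 1.63 on the WT arrays, without overlap.

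Across all 25 arrays, the mean of the 9 members without Csf1r had a Pearson r of 0.83 with the mean of the tubule markers, 0.78 with that of the endothelial markers and 0.17 with that of the podocyte markers. With the 18S control signal r was 0.61, and with the actin 3′ minus 5′ signal -0.25. These are descriptions over arrays that share groups and amplification. At 5 weeks the mean of the 9 was 5.27 and 5.44 on WT arrays 6 and 10, close to the lowest KI array at 5.41, and 4.52, 4.73 and 4.89 on WT arrays 7, 8 and 9. The tubule marker mean was 8.68 and 8.41 on WT arrays 6 and 10, and 7.67, 8.25 and 7.92 on WT arrays 7, 8 and 9.

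**Figure D3:**
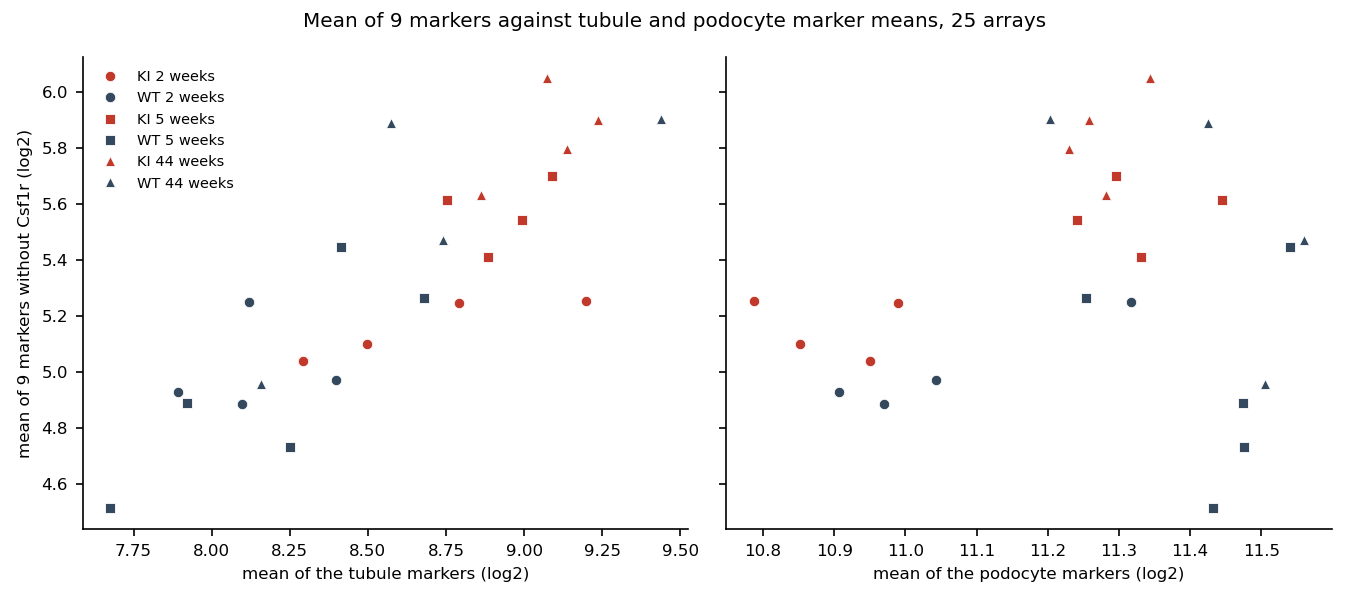
Mean log2 value of 9 markers without Csf1r (y axis) against the mean of the tubule markers (left) and of the podocyte markers (right), 1 point per array, KI in red and WT in dark, with age by symbol. The points rise from left to right in the left panel (r = 0.83 over 25 arrays) and do not line up in the right panel (r = 0.17).

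With the tubule marker mean as a covariate, 0 of the 9 members were called at 5 weeks and their differences ran from -0.58 to 0.88, with a median of 0.33; 0.802% of all genes were called in that fit, and 2017 genes had an unadjusted p under 0.05 (limma). With the endothelial marker mean they ran from -0.61 to 0.80, median 0.28, again with 0 called, where 1.4% of all genes were (2237 at an unadjusted p under 0.05). Tyrobp was at 0.88 ± 0.30 and 0.80 ± 0.29 in these 2 fits (limma adjusted p = 0.14 in each), C1qa 0.37 ± 0.33 and 0.21 ± 0.28, and C1qc 0.02 ± 0.26 and 0.06 ± 0.26. With the actin signal as a covariate 1 member, Tyrobp, was called (1.08 ± 0.29, limma adjusted p = 0.022), where 14.9% of genes were, and Fcer1g, Laptm5, C1qa and C1qb had adjusted p of 0.11, 0.095, 0.055 and 0.073. With WT arrays 7, 8 and 9 left out together, 0 members and 0.00836% of genes were called (1 gene, and 1547 at an unadjusted p under 0.05), and the differences ran from -0.32 to 0.63, median 0.26. Laptm5 was at 0.63 ± 0.22 (limma adjusted p = 0.27) and Tyrobp at 0.62 ± 0.29 (adjusted p = 0.38), with 2 WT arrays left. Fewer were also called without 1 array at a time: 1 without KI array 25, 2 without KI array 23 or 26 or WT array 7 or 8, and 3 without KI array 24 or WT array 9. The part of the other cell markers and of the actin signal in the differences was not tested beyond these fits. That of the 18S signal was not tested, as no fit used it as a covariate.

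**Figure D4:**
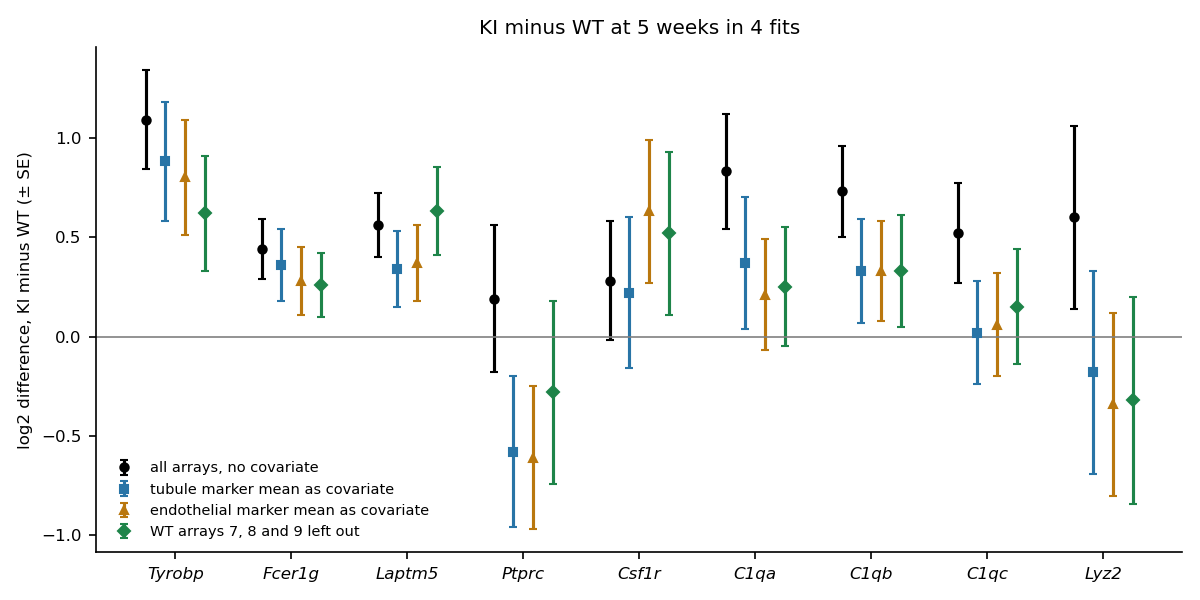
Log2 difference at 5 weeks, KI minus WT, of the 9 tested markers (x axis) in 4 limma fits; points are estimates and bars ± 1 SE. Tyrobp stays above 0.6 in all 4 fits but is called only in the fit of all arrays without a covariate. The medians of the 9 are 0.56 with all arrays, 0.33 and 0.28 with the covariates and 0.26 with 3 WT arrays left out.

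In WT, the members were higher at 44 weeks than at 5 weeks in 3 cases, the adaptors Tyrobp and Fcer1g and the lysosomal Laptm5, where 20.1% of genes were called and 11.3% were higher. These comparisons share the WT arrays of 5 weeks with the KI comparison above, so the values are not independent of it. Tyrobp had 5.95, 5.40, 6.32 and 5.34 at 44 weeks, against 5.25, 4.59, 4.18, 4.49 and 5.15 at 5 weeks, with no overlap (1.02 ± 0.25, limma adjusted p = 0.007). Laptm5 differed by 0.90 ± 0.16 (limma adjusted p = 0.00088), also without overlap, where 5.77% of genes were higher without overlap. Its dimmer probe set did overlap, with 4.50 to 5.58 at 44 weeks and 4.23 to 4.87 at 5 weeks. Fcer1g had 7.00, 6.42, 7.03 and 7.00 at 44 weeks, and only array 16 overlapped with 5 weeks (0.57 ± 0.15, adjusted p = 0.011). The 3 C1q genes differed by 0.45 ± 0.29, 0.58 ± 0.23 and 0.24 ± 0.25 in the order a, b and c, and none was called. Without WT arrays 7, 8 and 9 of 5 weeks 1 member, Laptm5, was called (0.97 ± 0.22, limma adjusted p = 0.013), where 7.11% of genes were. The tubule marker mean ran from 8.16 to 9.44 at 44 weeks and from 7.67 to 8.68 at 5 weeks. With that mean as a covariate, Tyrobp was at 0.87 ± 0.28 (adjusted p = 0.044), Laptm5 at 0.74 ± 0.17 (adjusted p = 0.0095) and Fcer1g at 0.51 ± 0.17 (adjusted p = 0.053). With the endothelial marker mean all 3 were called, Tyrobp at 0.86 ± 0.25 (limma adjusted p = 0.026), Laptm5 at 0.80 ± 0.17 (adjusted p = 0.0039) and Fcer1g at 0.48 ± 0.15 (adjusted p = 0.038). The actin 3′ minus 5′ signal ran from 0.78 to 1.24 at 44 weeks and from 1.47 to 1.63 at 5 weeks, without overlap, and the 18S signal averaged 11.04 ± 0.27 at 44 weeks (SD, n = 4) and 8.74 ± 0.73 at 5 weeks (n = 5). With the actin signal as a covariate 6.52% of genes were called and 1 of the 3 members, Laptm5 (0.73 ± 0.21, limma adjusted p = 0.043), while Tyrobp was at 1.01 ± 0.33 (adjusted p = 0.069) and Fcer1g at 0.51 ± 0.20 (adjusted p = 0.12).

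In KI the same step from 5 to 44 weeks gave 0 called members, where 16.8% of genes were called (3813 had an unadjusted p under 0.05 in limma). Ptprc was the member whose arrays did not overlap, with 6.64, 6.26, 6.24 and 6.12 at 44 weeks, against 5.67, 5.35, 5.25 and 5.75 at 5 weeks; 12.5% of genes were higher without overlap. Its difference was 0.81 ± 0.39 (limma adjusted p = 0.16). Tyrobp was 0.28 ± 0.26 and Laptm5 0.30 ± 0.17. Of the 13 other mononuclear phagocyte genes tested, 5 were called higher and 0 lower in this step, with a median of 0.60. Among all tested genes 8.11% were higher and 8.64% lower.

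Between 2 and 5 weeks the 2 genotypes each had 1 member higher and 1 lower. In WT 33.9% of genes were called, 12.2% higher and 21.7% lower, and in KI 13.7%, 5.4% higher and 8.29% lower. Ptprc was 1.00 ± 0.37 higher at 5 than at 2 weeks in WT (limma adjusted p = 0.043), with 4.49 to 5.81 at 5 weeks and 4.03 to 4.57 at 2 weeks; without array 1 of 2 weeks it was 1.03 ± 0.41 and no longer called (adjusted p = 0.061), and without WT arrays 7, 8 and 9 of 5 weeks it was 1.46 ± 0.46 (adjusted p = 0.055). Fcer1g was 0.52 ± 0.16 higher at 5 than at 2 weeks in KI (adjusted p = 0.03), with 6.64 to 6.82 at 5 weeks and 5.99 to 6.45 at 2 weeks. Laptm5 was lower on every WT array of 5 weeks than on every WT array of 2 weeks, 4.91 to 5.25 against 5.28 to 5.35, without being called (-0.21 ± 0.16, limma adjusted p = 0.33). In this step 9.32% of genes were lower without overlap. The dimmer probe set of Laptm5 did overlap, with 4.23 to 4.87 at 5 weeks and 4.46 to 4.83 at 2 weeks. C1qa and Fcer1g were higher without overlap in KI, where 11.5% of genes were. Csf1r was lower in both genotypes.

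Csf1r ran against the other members. It had 5.96, 5.99, 5.86 and 6.11 on the KI arrays at 5 weeks, against 7.78, 7.18, 7.56 and 7.13 at 2 weeks, and no array overlapped, where 13.7% of genes were lower without overlap. That is a difference of -1.43 ± 0.32 (limma adjusted p = 0.0052). In WT it had 5.91, 5.84, 6.09, 5.64 and 5.02 at 5 weeks, against 5.64, 7.30, 7.83 and 7.62 at 2 weeks, a difference of -1.40 ± 0.30 (adjusted p = 0.0015). Array 1 was the WT array at 5.64, within the range of the later ages, and without it the difference was -1.88 ± 0.21 (adjusted p = 1e-06). Without WT arrays 7, 8 and 9 of 5 weeks it was -1.64 ± 0.41 (limma adjusted p = 0.019). Without array 1, KI minus WT at 2 weeks was -0.17 ± 0.22, against 0.31 ± 0.32 with it, and was called in neither fit. At 44 weeks Csf1r stood at 5.48, 5.60, 5.56 and 6.02 on the KI arrays and at 5.85, 5.50, 5.24 and 5.38 on the WT arrays, near its level of 5 weeks (-0.32 ± 0.32 in KI and -0.21 ± 0.30 in WT for 44 against 5 weeks, limma adjusted p = 0.53 and 0.66).

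**Figure D5:**
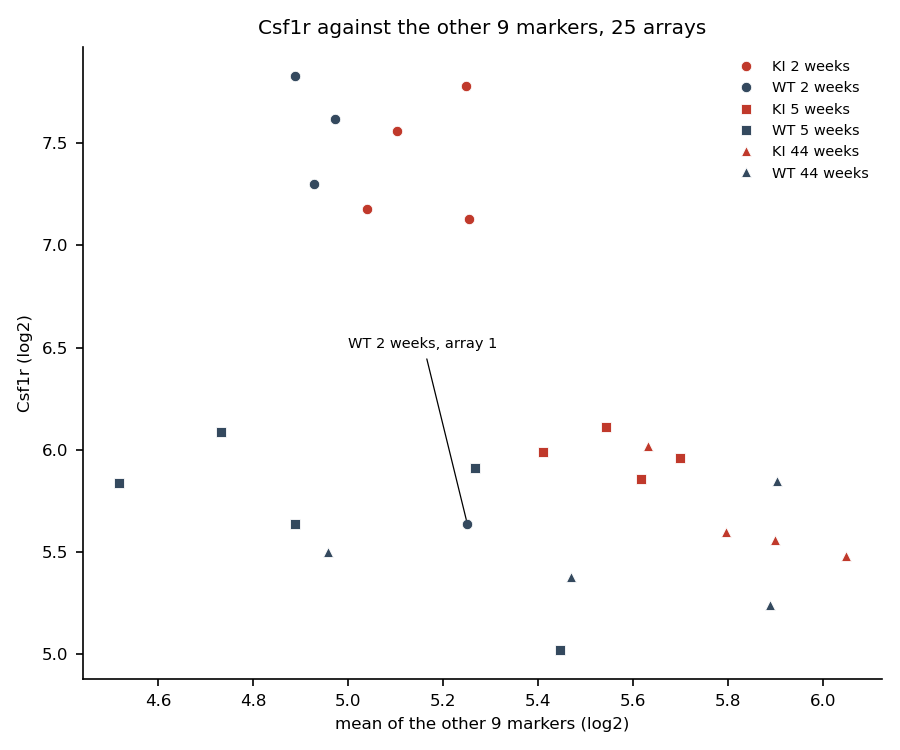
Csf1r (y axis, log2) against the mean of the other 9 markers (x axis, log2), 1 point per array, KI in red and WT in dark, with age by symbol. Of the 8 arrays of 2 weeks, 7 lie between 7.13 and 7.83 on the y axis, and array 1 of WT lies at 5.64, among the arrays of 5 and 44 weeks at 5.02 to 6.11.

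Over the 25 arrays Csf1r had Pearson r of -0.65 to -0.14 with the other members (9 pairs, median -0.33), where the 36 pairs without Csf1r had r of 0.27 to 0.75 (median 0.60). The closest pair was Tyrobp and Fcer1g (0.75), the 2 adaptor chains, and C1qa and C1qb reached 0.73. All of these share arrays and group differences. The genes most like Csf1r over the arrays, a measure chosen after its values were seen, were Rab38 (r = 0.97), Slc52a3, Acot13 and Irx1 (0.96 each), and Agt, Xpnpep2 and Irx2 (0.95 each). Irx1 and Irx2 encode Iroquois transcription factors of the developing nephron, and Agt encodes angiotensinogen. Agt had 9.71 to 10.56 on the KI arrays at 2 weeks and 6.37, the lowest, to 10.55 on the WT arrays, of which the lowest was again array 1, and 5.12 to 6.49 on all arrays of 5 and 44 weeks. After each group's mean was subtracted, r with Csf1r was 0.91 for Rab38 and 0.85 for Agt. On these arrays Csf1r thus did not rise and fall together with the other 9 members, and its r with each of them was negative. Of the 12 genes most like Csf1r, 0 were on the lists of phagocyte or class II genes used here. Which cells gave the Csf1r signal was not tested.

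The 12 genes most like the mean of the 10 standardized members had r of 0.86 to 0.90. They included Cd74, the invariant chain of class II antigen presentation (0.89), and Mrc1, the macrophage mannose receptor (0.86), and also Fam149a and Fbxo10 (0.90 each), Ubr4 (0.89), Myo1e, a myosin known from podocytes (0.87), and Clu (0.87). With group means subtracted, Cd74 was at 0.78, Mrc1 0.66 and Ubr4 0.83. Without Csf1r in the mean, a choice made after its values were seen, Cd74 came first (0.91), and Mpeg1 (0.88), Ctss (0.87) and Fcgr4 (0.87) were among the first 12. These 4 were on the lists of phagocyte or class II genes used here, and the other 8 of the 12, Fam149a and Myo1e among them, were on neither.

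The groups were ordered by their mean for each member. KI at 44 weeks was highest for 7 of the 10 members, WT at 44 weeks for Fcer1g and Laptm5, and KI at 2 weeks for Csf1r, while WT at 5 weeks was lowest for 5. On its dimmer probe set Laptm5 was highest in KI at 44 weeks, at 5.61. The span from the highest to the lowest group was widest for Ptprc, 1.99, with 6.31 ± 0.22 in KI at 44 weeks and 4.32 ± 0.23 in WT at 2 weeks (SD, n = 4 each). For Tyrobp the order from the top was KI at 44 weeks (6.10 ± 0.22), KI at 5 weeks (5.82 ± 0.42), WT at 44 weeks (5.75 ± 0.47), KI at 2 weeks (5.35 ± 0.46), WT at 2 weeks (4.77 ± 0.11) and WT at 5 weeks (4.73 ± 0.45; n = 5, else 4). Only the step from KI to WT at 2 weeks, 0.58, exceeded the larger SD of the 2 neighbours. Neighbouring groups overlapped throughout for C1qa, C1qb, C1qc, Cd68, Ptprc and Lyz2, with gaps inside the larger SD. Lyz2 spread most within a group, from 4.26 to 7.17 in WT at 44 weeks.

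Other genes of the same cells and pathways were read from lists chosen with earlier results of these data known, and are given at 5 weeks, KI against WT, and then in WT, 44 against 5 weeks. Of the 13 other mononuclear phagocyte genes tested, 5 were higher and 0 lower in KI at 5 weeks (median 0.68), against 14.3% and 7.75% of all genes. The inhibitory Fc receptor Fcgr2b had 6.27 to 8.02 on the KI arrays and 4.45 to 6.22 on the WT arrays, a difference of 1.49 ± 0.36 (limma adjusted p = 0.0076). Fcgr3, an activating Fc receptor that signals through Fcer1g, had 4.87 to 5.67 on the KI arrays and 4.35 to 4.97 on the WT arrays (0.73 ± 0.19, adjusted p = 0.011), and Pld4 was 0.68 ± 0.15 higher (adjusted p = 0.0049). In WT, 7 of the 13 were higher and 0 lower at 44 than at 5 weeks, against 11.3% and 8.85% of all genes. The smallest p were those of Fcgr3 (1.05 ± 0.19), Pld4 (0.77 ± 0.15) and Fcgr2b (1.77 ± 0.36). In the same 2 comparisons Tyrobp itself was at 1.09 and 1.02, and Fcer1g at 0.44 and 0.57.

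Of 12 tested ligands and receptors of the members, 3 were higher and 0 lower in KI at 5 weeks: Fcgr3, Fcgr4 (0.67 ± 0.24, limma adjusted p = 0.048) and Il34. Il34, the second ligand of Csf1r and a product of epithelial cells, had 6.60 to 7.25 on the KI arrays and 5.54 to 6.94 on the WT arrays, a difference of 0.83 ± 0.24 (adjusted p = 0.021), while Csf1r itself was not called. In WT, 4 were higher and 2 lower at 44 weeks, among them Il34 (0.92 ± 0.24) and C1qbp (0.41 ± 0.11), which encodes a protein that binds C1q. Of 10 tested genes of signalling below the members, Ptpn6, the phosphatase SHP-1 (1.72 ± 0.46), and Plcg2 (1.75 ± 0.47) were higher and Fyn (-0.46 ± 0.13) lower in KI at 5 weeks. In WT at 44 weeks Ptpn6 was higher (1.46 ± 0.46), and Grb2 (-0.45 ± 0.10) and Src (-0.61 ± 0.16) lower. For all tested genes the shares were 14.3% higher and 7.75% lower in KI at 5 weeks, and 11.3% higher and 8.85% lower in WT at 44 against 5 weeks.

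Markers of other leukocytes gave a mixed picture. Of 11 tested genes found in leukocytes at large, Lcp1 (2.22 ± 0.76) and Arhgdib (0.95 ± 0.32) were higher and Sla (-1.26 ± 0.38) lower in KI at 5 weeks, and in WT at 44 weeks 0 were higher and 2 lower, Lsp1 (-1.14 ± 0.29) and Sla (-1.21 ± 0.38). At 5 weeks Lcp1 had 11.37 to 12.03 on the KI arrays and 7.85 to 11.04 on the WT arrays. Sla averaged 8.10 ± 0.89 in KI (SD, n = 4) and 9.36 ± 0.79 in WT (n = 5), where Ptprc averaged 5.50 ± 0.24 and 5.32 ± 0.59. Whether the signal of Lcp1 and Sla came from leukocytes was not tested. Among all tested genes 14.3% were higher and 7.75% lower in KI at 5 weeks, and 11.3% higher and 8.85% lower in WT at 44 against 5 weeks. No tested gene of T and NK cells (8), B and plasma cells (3), neutrophils (2) or dendritic and mast cells (3) was called in KI at 5 weeks; of these lists 11 of 19, 7 of 10, 9 of 11 and 8 of 11 genes on the array were too dim to test. In WT, Jchain, the joining chain of secreted antibodies, had 7.74 to 9.67 at 44 weeks and 3.34 to 5.36 at 5 weeks, a difference of 4.86 ± 0.39 (limma adjusted p = 9.5e-08), and Prf1, the perforin of killer cells, was 0.92 ± 0.18 higher (adjusted p = 0.0016). Prf1 had 8.21 to 8.69 at 44 weeks and 7.10 to 8.10 at 5 weeks.

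Class II antigen presentation and the lysosome are shared with macrophages by other cells of the kidney. Cd74 was the only 1 of 6 tested class II genes called in KI at 5 weeks, with 9.40 to 9.70 on the KI arrays and 7.00 to 9.47 on the WT arrays (1.46 ± 0.40, limma adjusted p = 0.015), and in WT at 44 weeks H2-Aa (1.37 ± 0.32), H2-Eb1 (0.89 ± 0.23) and Cd74 (1.51 ± 0.40) were higher. Of 21 lysosome genes 6 were higher and 1 lower in KI at 5 weeks, with the smallest p for Ctsa (0.83 ± 0.19) and Ctsd (0.77 ± 0.18), and 11 were higher and 0 lower in WT at 44 weeks, with the smallest p for Npc2 (0.63 ± 0.11), Ctsh (1.11 ± 0.22) and Lipa (0.89 ± 0.18). Of 6 genes of monocyte recruitment Mif alone was called, 0.85 ± 0.15 higher in KI at 5 weeks and 0.83 ± 0.15 higher in WT at 44 weeks, while Ccl2, the main monocyte chemokine, differed by 0.26 ± 0.12 (limma adjusted p = 0.13) and 0.34 ± 0.12 (adjusted p = 0.059). The shares of all tested genes beside these counts were 14.3% higher and 7.75% lower in KI at 5 weeks, and 11.3% higher and 8.85% lower in WT at 44 against 5 weeks.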

How the data were processed

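The arrays were hybridized with polysomal RNA amplified in 1 round with the NuGEN kit, per the labels. The values are as deposited by the authors: 1 log2 signal per probe set and array, whose summarization and normalization are not given in the sources used here. Array medians ran from 4.82 to 4.99. Arrays have no read depth; their number limits the precision.

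Of 45141 probe sets, 28898 had 1 gene symbol, 551 several, 15692 were not in the annotation and 104 were controls. The brightest probe set was kept for each of 17097 genes, and the dimmest 30% were left out. Limma 3.58.1 in R 4.3.3 fitted 6 group means over 25 arrays (19 residual degrees of freedom), tested on simulated data, and a gene was called at an adjusted p under 0.05. The genes named are all members, the 3 smallest p of each list in each of 2 comparisons (KI against WT at 5 weeks, WT at 44 against 5 weeks) and the 12 genes most like the members' mean; some are given only in counts. Phagocyte genes named as under or above the limit were picked after their values were seen. Members and lists were chosen with earlier results of these data known. All columns were used. Alternatives are given in the closing section.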

Additional observations from a re-analysis of the deposited data

Results flagged for a closer look

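Of 60 combinations of member and group, 3 held an array far from the rest of its group, where chance flags about 5% of groups. Fcer1g was 6.42 on WT array 16 of 44 weeks, below 7.00 to 7.03 on the other 3 arrays. C1qc was 5.48 on WT array 1 of 2 weeks, above 4.68 to 4.74 on the others, on the array whose Csf1r level also stood apart. Cd68 was 5.12 on WT array 15 of 44 weeks, above 4.59 to 4.64 on the others.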

How the results depend on the processing

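No paired analysis was possible because the array numbers in the titles are unique and no 2 groups share one. The count of members called for KI against WT at 5 weeks, 5 with all arrays, was 3 after quantile normalization or centring on array medians, 2 with only the arrays compared, 1 with the actin 3′ minus 5′ signal as a covariate, 0 with the tubule or the endothelial covariate, 0 without WT arrays 7, 8 and 9, and 1 to 6 without 1 array at a time. The count averaged over ages, 1, was 2 with the mean of all probe sets, 5 with array weights, 0 with the tubule or endothelial covariate, 0 without WT arrays 7, 8 and 9, and 1 to 3 without 1 array. For WT at 5 against 2 weeks, 2 became 1 with no filter on dim genes, with array weights, with the Y-linked or actin covariate and without WT arrays 7, 8 and 9, and was 1 to 2 without 1 array. For WT at 44 against 5 weeks, 3 became 1 with only the arrays compared, with the actin covariate and without WT arrays 7, 8 and 9, and was 3 to 5 without 1 array (5 without WT array 16 of 44 weeks). For KI at 5 against 2 weeks the count was 1 to 2 without 1 array. For KI at 44 against 5 weeks, 0 became 1 with only the arrays compared. The change of the KI effect from 2 to 5 weeks gave 1 with array weights and 0 to 1 without 1 array (1 without WT array 10 of 5 weeks), against 0. Counts at 2 and 44 weeks and for the later change stayed at 0 in all alternatives run. The cause of these changes was not tested.

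Over 3330 values of single members in these alternatives, 83 lost and 21 gained a call, and 28 uncalled values moved by more than the residual SD. Where a value was called in either fit, 0 changed sign. Uncalled values did change sign: at 5 weeks, with the tubule covariate, Ptprc went from 0.19 to -0.58 and Lyz2 from 0.60 to -0.18. Among called members, Csf1r in both falls with age and Laptm5 in WT at 44 against 5 weeks kept their calls in all 37 alternatives run; Tyrobp at 5 weeks kept it in 34 of 37, and C1qa in 15 of 37. Leaving out the lowest 50% of genes put the limit at 6.55, above every member, and gave no value. Signal over background limits the members in general, and the 13 phagocyte genes under the limit were not tested.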
